A study of Mus musculus with 2 samples.

Results

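The solute carrier genes were described cell layer by cell layer in the back skin epithelium of mouse embryos. The genes were chosen by name and depth: every symbol that begins with Slc and a digit was taken if it held at least 200 UMIs (unique molecular identifiers, each 1 captured transcript) over both libraries, in cells with at least 1800 detected genes. This left 147 of the 373 Slc symbols in the gene list, among 10184 genes of any kind that passed the same minimum. Of the other Slc symbols, 84 had no UMI at all. Slc46a1 (205 UMIs) and Slc2a5 (206) lay just inside the limit, and Slc19a2 (199) and Slc38a7 (197) just outside. Totals of the members ran from 205 to 83815 UMIs with a median of 726, and these totals, which chose the members, are not a result.

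The study asked what the loss of N6-methyladenosine (m6A) from mRNA does to skin epithelium. It compared 1 library from Ctrl embryos (Mettl3 fl/+, Rosa16-YFP fl/+, K14Cre) with 1 library from cKO embryos (Mettl3 fl/fl, Rosa16-YFP fl/+, K14Cre). The locus is spelled Rosa16 as in the labels, while the methods name Rosa26. Both are C57BL/6 at embryonic day 17, both carry the Cre that the Krt14 promoter drives in epidermal progenitors, and the Ctrl embryos have lost 1 Mettl3 copy in the same cells. METTL3 is the enzyme that writes m6A. The cells were sorted as live, YFP+ and negative for surface markers of other skin lineages, within a gate on integrins. Droplet 3′ tags were counted, and these do not show the deleted exon. With 1 library per condition there was no replicate, so no test between Ctrl and cKO was possible. Values are CPM (UMIs per 1000000 UMIs of the same cells) with 95% exact Poisson intervals, and ratios carry 95% exact conditional binomial intervals. All intervals cover counting error only.

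Solute carriers are membrane proteins that move sugars, amino acids, metals, nucleotides and other small molecules across the plasma membrane and the membranes of organelles. Some work by exchange, some are driven by sodium or proton gradients, and some need a partner protein to reach the surface. In skin, basal progenitors take up nutrients from the dermis below, the layers above live farther from the blood supply, and the hair follicle buds grow down into the dermis.

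The Ctrl library held 4447 cells with 43874554 UMIs and the cKO library 3577 cells with 34116275 UMIs, and 16 cell barcodes occurred in both. The solute carrier genes took 0.492% of UMIs in Ctrl and 0.481% in cKO. Mettl3 stood at 12.7 CPM in Ctrl and 6.18 CPM in cKO. The Ctrl library had 89523 Xist UMIs and the cKO library 1, against 0 and 1520 of the Y-linked Ddx3y, so sex and genotype cannot be told apart in any ratio of cKO to Ctrl. Of the 7 X-linked members, all were measured in basal-like cells and none passed 1.5-fold there, nor did any of the 3, 1 and 5 measured in suprabasal-like, HF WNThi-like and HF WNTlo-like cells. Over all genes measured in basal-like cells, 6.52% passed it higher and 2.25% lower in cKO. With so few members, these counts cannot show whether sex affects the ratios.

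Cells were clustered without the Slc genes and named by markers. The 4 classes used here were Epi basal-like (2052 Ctrl and 1407 cKO cells), Epi suprabasal-like (468 and 356), HF WNThi-like, cells of the hair placode and germ (150 and 283), and HF WNTlo-like, their follicle daughters (689 and 768). Clusters of 292 Ctrl and 341 cKO cells, 433 and 45, 280 and 62, and 11 and 263 met no naming rule and entered no class. Fgf20, an HF WNThi marker, was among the first 10 genes by fold in those of 433 and 45 and of 11 and 263 cells. With each gene centred within its library before clustering, the HF WNThi-like class held 463 Ctrl and 423 cKO cells. Cell numbers per class thus depend on the clustering. Of the markers fixed for each class, 5 of 7 were highest in basal-like cells in both libraries (Krt14 and Col17a1 among them, not Krt15 or Fzd10), 5 of 5 in suprabasal-like cells (Krt1, Krt10), 5 of 6 in HF WNThi-like cells (Shh and Dkk4, not Lhx2) and 6 of 7 in HF WNTlo-like cells (Sox9 and Pthlh, not Wif1). Krt14 was also high in suprabasal-like cells (5640 CPM in Ctrl). The immune gene Cd74 was at 74.1 and 36.8 CPM in HF WNThi-like cells, where Ptprc, Lyz2 and the fibroblast gene Pdgfra were at 0. Dcn, a fibroblast gene, was at 3249 and 2409 CPM in the same cells. Their part in the results was not tested. With 5% of each class sum taken as free RNA and subtracted, the same 8 genes met the enrichment rule described next. In the basal-like class, 2 clusters were mostly Ctrl (1206 against 151 cells and 823 against 61) and the third mostly cKO (23 against 1195), so a Ctrl to cKO difference there is largely a difference between these clusters. The Y-linked genes Kdm5d, Eif2s3y and Uty were among the first 10 genes by fold in the mostly cKO cluster. Whether the condition, sex or the library as a run separates these clusters cannot be told apart.

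Of the 147 genes, 8 were enriched in 1 class: at least 2-fold above each of the other 3 classes in Ctrl and again in cKO, with at least 20 UMIs in the leading class of each library. That share was 5.44%, beside 6.04% of all genes with at least 200 UMIs. One was basal-like (background 0.187%), 2 were suprabasal-like (2.27%), 3 were HF WNThi-like (1.18%) and 2 were HF WNTlo-like (2.41%). Both libraries gave each of the 8 the same leading class, but the rule requires that. Slc7a11 and Slc2a5 reached the minimum of 200 UMIs only through their leading class. It held 120 Ctrl and 83 cKO of the 233 UMIs of Slc7a11, and 111 and 61 of the 206 of Slc2a5. For these genes enrichment is not independent of how the members were chosen. Of the 8, 5 (Slc2a5, Slc7a11, Slc31a2, Slc27a1 and Slc15a2) met the rule in all 14 other ways of processing, whereas Slc40a1 and Slc7a2 met it in 10 and Slc39a8 in 8.

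Among the 8, the largest difference to the next class was that of Slc7a11, which encodes the light chain of the cystine and glutamate exchanger that feeds glutathione synthesis. The gene lies on chr3:49892526-50443614 (mm10). Its level in suprabasal-like cells was 21.3 CPM (17.7 to 25.5) in Ctrl and 20.4 CPM (16.3 to 25.3) in cKO. In basal-like cells it was 0.243 and 0.36 CPM, from 5 UMIs in each library. The ratio of suprabasal-like to basal-like cells was thus 87.7 (36.5 to 275) in Ctrl and 56.7 (23.4 to 179) in cKO. Both follicle classes held no more than 1.5 CPM. Within the suprabasal-like class, the smaller cluster, with Tgm3 and Mt4 among its first 10 genes by fold, held 51.7 CPM in Ctrl and 61.5 CPM in cKO, and the larger cluster 15.5 and 13.5 CPM. The heavy chain that Slc7a11 needs at the surface, Slc3a2, had no such layer pattern, with 225 CPM in basal-like and 173 CPM in suprabasal-like cells of Ctrl.

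Slc7a11 is a known target of the amino acid response factor ATF4, which binds the amino acid response element, searched here as TGATGNAA. The promoter below is shown because it holds 2 matches. The other 2 sequences and their motifs were picked by hand, for genes that differed between layers or conditions, and not by a ranking. Each covers 250 bases before to 50 bases after the start in RefSeq (GRCm38.p6), written 5′ to 3′ on the gene's strand, with the motif in capitals. The Slc7a11 window is chr3:50443564-50443863 on the minus strand, the Slc16a3 window chr11:120948817-120949116 on the plus strand with ACGTG (the core of the hypoxia response element), and the Slc31a2 window chr4:62286179-62286478 on the plus strand with CACGTG (the E-box).
Slc7a11: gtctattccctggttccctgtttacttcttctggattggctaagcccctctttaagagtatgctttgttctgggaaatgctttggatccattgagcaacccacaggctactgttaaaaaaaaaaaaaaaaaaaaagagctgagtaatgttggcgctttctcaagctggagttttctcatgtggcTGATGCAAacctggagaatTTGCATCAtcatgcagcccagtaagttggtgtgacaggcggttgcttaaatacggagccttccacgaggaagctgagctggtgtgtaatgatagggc
Slc16a3: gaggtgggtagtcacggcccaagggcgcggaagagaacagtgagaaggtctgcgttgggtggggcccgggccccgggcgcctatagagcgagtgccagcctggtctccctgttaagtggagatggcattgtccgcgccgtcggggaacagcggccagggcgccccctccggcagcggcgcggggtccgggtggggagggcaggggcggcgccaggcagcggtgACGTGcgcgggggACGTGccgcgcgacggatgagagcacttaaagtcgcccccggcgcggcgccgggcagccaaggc
Slc31a2: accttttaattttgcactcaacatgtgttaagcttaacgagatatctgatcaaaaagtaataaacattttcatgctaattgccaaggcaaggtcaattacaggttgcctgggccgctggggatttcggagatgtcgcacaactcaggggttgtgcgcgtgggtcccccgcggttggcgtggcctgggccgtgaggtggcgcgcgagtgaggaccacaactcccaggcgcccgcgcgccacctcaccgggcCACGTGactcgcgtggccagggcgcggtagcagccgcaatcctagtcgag
Both strands were searched. CACGTG contains ACGTG, so each promoter counted for CACGTG is also counted for ACGTG. TGATGNAA occurred in 3.97% of 32851 promoters, ACGTG in 19.6% and CACGTG in 7.15%. Among the genes with at least 200 UMIs that had a promoter in the table, the shares were 2.37%, 30.6% and 12.5%, and among the 112 matched solute carrier genes they were 2.68%, 36.6% and 18.8%. A match is a description of the letters, not evidence of binding.

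Of the 9 amino acid response genes listed beside the carriers, 8 had higher levels in suprabasal-like than in basal-like cells in both libraries. No fold or depth minimum was set for this count. Chac1, counted among the 8 and under 1 CPM throughout, rested on 1 UMI in each of these classes and libraries. The same share over all genes was not computed. The median log2 ratio of suprabasal-like to basal-like cells over all genes measured was -0.07 in Ctrl and -0.06 in cKO. A link of this count to Slc7a11 was not tested. Atf4 itself was at 152 against 96.6 CPM in Ctrl, the asparagine synthetase gene Asns at 77.0 against 38.4 CPM and Trib3 at 4.09 against 0.584 CPM. The serine synthesis genes Phgdh and Psat1 were at 547 against 388 CPM and 420 against 338 CPM. Ddit3 lay the other way, at 11.4 against 14.8 CPM. Of the same 9 genes, 2 were higher and 7 lower in HF WNThi-like than in basal-like cells in both libraries. In HF WNTlo-like cells, where Slc7a11 was also low, 5 were higher and 4 lower.

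Slc31a2 on chr4:62262562-62298411, a copper transporter of internal membranes, was the second suprabasal-like gene. In Ctrl its level was 83.7 CPM (76.3 to 91.7) in suprabasal-like, 20.4 CPM in basal-like, 21.9 CPM in HF WNTlo-like and 6.74 CPM in HF WNThi-like cells. In cKO the levels were 43.8 CPM (37.6 to 50.7), 11.2, 14.4 and 4.04 CPM in the same order of classes. The order of the classes was the same in both libraries at a lower level in cKO, though the intervals of basal-like (18.5 to 22.4 CPM) and HF WNTlo-like cells (18.3 to 26 CPM) overlapped in Ctrl. Its paralog Slc31a1, the copper importer of the plasma membrane, differed less between layers, at 34.1 CPM in suprabasal-like and 23.7 CPM in basal-like cells of Ctrl.

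Slc2a5 on chr4:150119283-150144169, which encodes the fructose transporter GLUT5, was the only basal-like member. It stood at 5.4 CPM in Ctrl (111 UMIs) and 4.39 CPM in cKO (61 UMIs) in basal-like cells. No UMI was seen in HF WNThi-like cells of either library, which makes it at least 2.41-fold lower in Ctrl and at least 3.62-fold lower in cKO there, taking 3 UMIs per library as the limit that a count of 0 allows. In HF WNTlo-like cells it was at 1.51 and 0.765 CPM. Slc2a5 was the first gene by fold in the largest basal-like cluster. No Slc gene took part in the clustering, but that cluster is part of the class through which Slc2a5 reached the minimum. Its rank there is therefore not separate support.

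Slc27a1 and Slc15a2 marked the HF WNTlo-like cells. Slc27a1 (chr8:71568882-71587302), a fatty acid transport protein that also activates its substrate, reached 72.9 CPM in Ctrl and 89.3 CPM in cKO, against 16.1 and 18.8 CPM in basal-like and 5.33 and 5.41 CPM in suprabasal-like cells. Slc15a2 (chr16:36750177-36784962), a proton-driven transporter of short peptides, reached 29.4 CPM in Ctrl and 37.5 CPM in cKO. Elsewhere it lay between 3.2 and 6.23 CPM in Ctrl and between 8.12 and 11.3 CPM in cKO. Within the class, both genes were higher in the cluster with the stronger WNTlo markers (Slc27a1 95.6 and Slc15a2 41.1 CPM in Ctrl) than in the cluster with Krt79 (53.0 and 19.2 CPM).

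In HF WNThi-like cells 3 genes led. Slc7a2, a transporter of arginine and other cationic amino acids (chr8:40862396-40922308), was at 22.5 CPM in Ctrl and 16.2 CPM in cKO, against at most 3.98 CPM in the other classes. Slc40a1, which encodes the iron exporter ferroportin (chr1:45908068-45926523), was at 29.9 and 14.1 CPM and rested on 40 and 35 UMIs. Slc39a8, an importer of zinc and manganese (chr3:135825279-135888572), was at 38.2 and 21.0 CPM. These genes were not confined to the class: an unnamed cluster with raised scores for the markers of both follicle classes held 27.2 and 21.3 CPM of Slc40a1 and 15.1 and 14.2 CPM of Slc7a2. When each library was clustered alone, when each cluster took the name of its highest marker score, or when cells with at least 1000 genes were kept, none of these 3 met the enrichment rule.

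**Figure D1:**
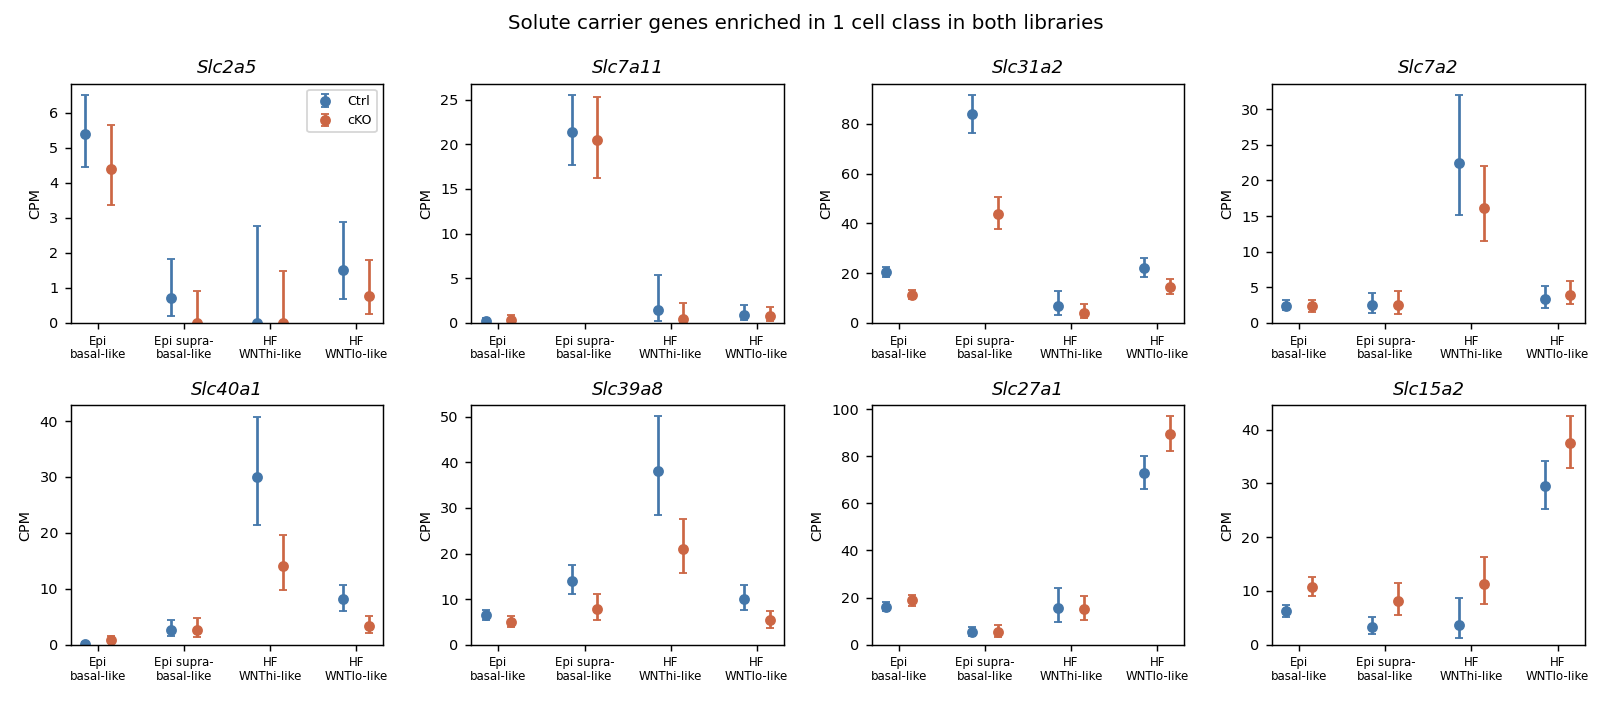
Level in CPM (y axis, from 0) of the 8 class-enriched solute carrier genes in each of the 4 cell classes (x axis), with Ctrl in blue and cKO in orange and bars for 95% exact Poisson intervals. Slc7a11 stands near 20 CPM in suprabasal-like cells of both libraries and near 0 elsewhere, while Slc31a2 keeps its order of classes at a lower level in cKO.

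The classes were also compared one by one with basal-like cells, a set of contrasts added after the values were seen. A gene was counted when it differed at least 2-fold in the same direction in both libraries, with at least 50 UMIs in each over both classes together. In suprabasal-like cells 4 of 139 measured members were higher (2.88%, background 4.62%) and 13 were lower (9.35%, background 6.97%). In HF WNThi-like cells 4 of 134 were higher (background 3.13%) and 6 lower (background 3.41%). In HF WNTlo-like cells 7 of 144 were higher (background 6.32%) and 4 lower (background 1.18%).

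The 4 genes higher in suprabasal-like cells were Slc7a11, Slc31a2, Slc16a6 and Slc37a4. Slc16a6, a monocarboxylate transporter relative, was at 14.6 against 4.43 CPM in Ctrl and at 11.3 against 4.97 CPM in cKO. It was also higher in HF WNThi-like cells, at 12.7 and 12.1 CPM. Slc37a4 carries glucose 6-phosphate into the endoplasmic reticulum and was at 7.29 against 3.21 CPM in Ctrl.

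The 13 genes lower in suprabasal-like cells included several uptake routes of the plasma membrane. Slc1a3, a glutamate and aspartate transporter, was at 112 CPM in basal-like and 21.3 CPM in suprabasal-like cells of Ctrl, and at 123 and 40.4 CPM in cKO. It was high again in HF WNThi-like cells (150 and 180 CPM) and low in HF WNTlo-like cells (32.8 and 30 CPM). Slc6a6, the taurine transporter, was at 22.4 against 8.71 CPM in Ctrl. Slc2a4, the insulin-responsive glucose transporter GLUT4, held 3 UMIs in suprabasal-like cells of each library, and its ratio to basal-like cells was 0.0906 (0.0184 to 0.271) in Ctrl and 0.139 (0.0279 to 0.421) in cKO. Slc35d1, which carries nucleotide sugars into the endoplasmic reticulum, was at 11 against 1.78 CPM in Ctrl. Slc12a4 (potassium and chloride cotransport), Slc29a1 (nucleosides) and both fatty acid transport genes Slc27a1 and Slc27a3 were among the rest, with Slc16a13, Slc24a5, Slc25a24, Slc25a29 and Slc2a5. In contrast, the main glucose transporter gene Slc2a1 differed little between these layers, at 247 CPM in basal-like and 266 CPM in suprabasal-like cells of Ctrl, and was at 125 CPM in HF WNThi-like cells.

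In HF WNThi-like cells Slc16a10, an aromatic amino acid transporter, was higher than in basal-like cells in both libraries, at 12.7 against 5.84 CPM in Ctrl. Slc25a37, the mitochondrial iron importer mitoferrin, was lower, at 2.25 against 10.3 CPM in Ctrl (3 UMIs in the follicle cells) and at 5.25 against 13.3 CPM in cKO. Slc12a2, Slc25a48, Slc50a1, Slc31a2 and Slc2a5 were the others. In HF WNTlo-like cells Slc38a1 (glutamine uptake) was at 7.07 against 2.14 CPM in Ctrl, Slc30a1 (zinc export) at 5.05 against 2.34 CPM and Slc41a1 (magnesium) at 6.23 against 2.38 CPM. Slc25a25 and Slc37a3 were also higher. Slc7a1, the main transporter of cationic amino acids, was lower, at 24.9 against 56.8 CPM in Ctrl and at 16.4 against 51.7 CPM in cKO, and so was the imprinted gene Slc22a18, at 4.71 against 12.8 CPM in Ctrl.

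**Figure D2:**
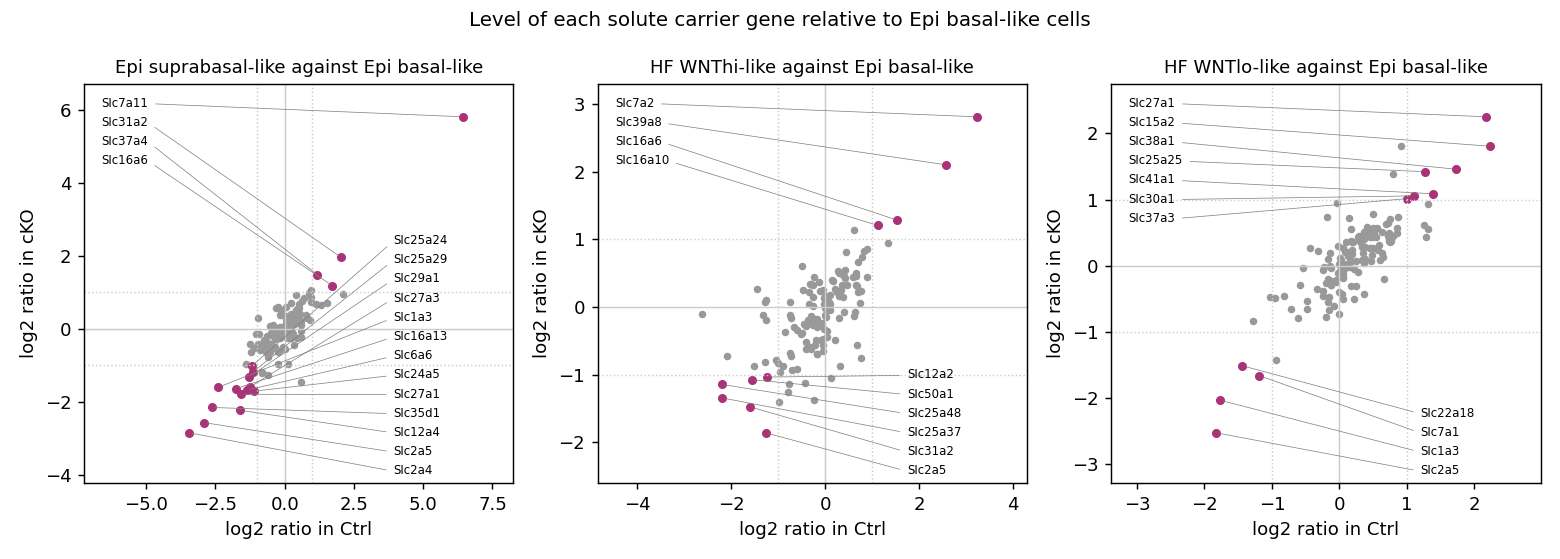
Each point is a measured solute carrier gene, with the log2 ratio of its CPM in the named class to that in Epi basal-like cells in Ctrl (x axis) and in cKO (y axis), and dotted lines at 2-fold. Named points passed 2-fold in both libraries, with Slc7a11 at 6.45 and 5.83 in the left panel.

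For Ctrl against cKO, a member was measured in a class when it held at least 100 UMIs there, and counted when the ratio passed 1.5-fold. In basal-like cells 6 of 134 members were higher in cKO (4.48%, background 6.52%) and 3 were lower (2.24%, background 2.25%). The median log2 ratio was 0.06 over the members and 0.03 over all genes measured. In suprabasal-like cells 4 of 66 were higher (background 7.32%) and 3 lower (background 2.87%), and in HF WNThi-like cells 3 of 26 were higher (background 6.77%) and 1 lower (background 4.75%). In HF WNTlo-like cells 3 of 94 were higher (background 3.30%) and 3 lower (background 2%). These shares lay near the background in basal-like and HF WNTlo-like cells and rested on at most 4 genes per direction elsewhere, and what follows describes single genes. The calls outside basal-like cells that passed 1.5-fold in fewer than 10 of 14 other ways of processing were Slc7a1 (4), Slc38a4 (7), Slc31a2, Slc25a37 and Slc19a1 (8 each) in HF WNTlo-like cells, and Slc39a8 and Slc38a10 (8 each) and Slc25a51 (9) in HF WNThi-like cells.

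Among the 17 metal transporters measured in basal-like cells, Slc31a2 had the lowest ratio. The ratio of cKO to Ctrl was 0.551 (0.455 to 0.663) in basal-like, 0.523 (0.438 to 0.623) in suprabasal-like and 0.657 (0.499 to 0.864) in HF WNTlo-like cells, and 0.6 (0.219 to 1.67) from 19 UMIs in HF WNThi-like cells. It passed 1.5-fold in all 14 other ways of processing in basal-like and suprabasal-like cells, but in 8 of 14 in HF WNTlo-like cells, where its log2 ratio was -0.61 and became -0.092 when each library was clustered alone. In the suprabasal-like class the difference was present in each cluster, at 75.1 against 36.2 CPM in the larger and 129 against 88.8 CPM in the smaller one. In the basal-like class the mostly cKO cluster held 10.2 CPM, but the few cKO cells in the mostly Ctrl clusters held 16.9 and 18.4 CPM (25 and 11 UMIs), close to the 21.5 and 19.1 CPM of the Ctrl cells beside them. Slc31a1 was at ratios of 0.857 to 0.966 over the 4 classes.

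Slc39a8 was lower as well, with ratios of 0.561 (0.36 to 0.855) in suprabasal-like cells and 0.551 (0.367 to 0.827) in HF WNThi-like cells. It was at 0.762 in basal-like cells and, from 95 UMIs, at 0.53 (0.339 to 0.818) in HF WNTlo-like cells. In contrast, Slc30a4, a zinc transporter that loads vesicles, was at 2.97 CPM in Ctrl and 6.19 CPM in cKO in basal-like cells, a ratio of 2.09 (1.48 to 2.94). Its levels in the other classes rested on 12 to 66 UMIs, with ratios above 1 in each. The mostly cKO basal-like cluster held 6.52 CPM of Slc30a4, the largest mostly Ctrl cluster 3.89 CPM in Ctrl and 4.05 CPM in cKO cells (6 UMIs), and the other mostly Ctrl cluster 1.69 and 5.02 CPM (14 and 3 UMIs). Slc30a6, another zinc transporter of the secretory pathway, was at 8.36 and 15.7 CPM in suprabasal-like cells, a ratio of 1.88 (1.27 to 2.81). Slc39a1, a zinc importer, was at 1.32 in basal-like and 1.43 in HF WNTlo-like cells. The metallothionein genes, which zinc induces, were near 1 in basal-like cells (Mt1 0.995, Mt2 1.07), and Mt2 was at 1.59 (1.48 to 1.71) in HF WNTlo-like cells.

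For iron, the ferroportin gene Slc40a1 had ratios of 0.473 (0.291 to 0.763) in HF WNThi-like and 0.417 (0.24 to 0.704) in HF WNTlo-like cells, both from fewer than 100 UMIs, while basal-like cells held 3 UMIs in Ctrl and 12 in cKO. The value in HF WNThi-like cells, a log2 ratio of -1.08, did not hold across the definitions of that class: it became -0.093 with each gene centred within its library before clustering (10.6 and 9.9 CPM), -0.27 with clusters named by their highest score and 0.17 with at least 1000 genes per cell, and over all kept cells it was -0.036. The mitochondrial iron importer genes Slc25a28 and Slc25a37 lay the other way. Slc25a28 was at 13.1 CPM in Ctrl and 19.9 CPM in cKO in basal-like cells, a ratio of 1.52 (1.28 to 1.8) that passed 1.5-fold in only 4 of 14 other ways of processing. Slc25a37 was at 6.9 and 10.9 CPM in HF WNTlo-like cells, a ratio of 1.57 (1.06 to 2.37). The transferrin receptor gene Tfrc was lower in cKO in suprabasal-like cells (59.0 and 38.4 CPM) and HF WNThi-like cells (43.4 and 25.5 CPM), and at 1.16 in HF WNTlo-like cells. In basal-like cells none of the 3 iron genes and none of the 3 zinc genes fixed beside the carriers passed 1.5-fold, and of 7 measured genes for other membrane transport proteins 1 was lower (Atp1b1 at 0.657). Over all genes measured there, 6.52% passed it higher and 2.25% lower.

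**Figure D3:**
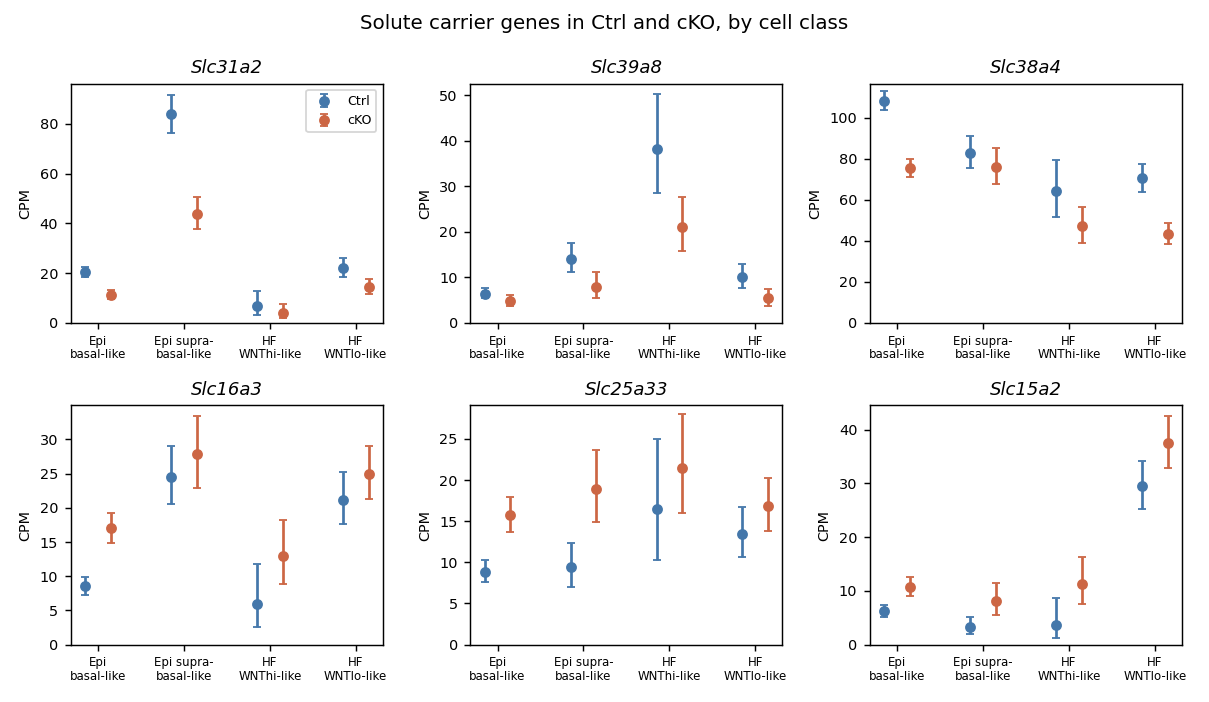
Level in CPM (y axis, from 0) of 6 solute carrier genes in the 4 cell classes (x axis), with Ctrl in blue, cKO in orange and 95% exact Poisson intervals. The intervals of Slc31a2 in Ctrl and cKO do not overlap in basal-like, suprabasal-like and HF WNTlo-like cells, and those of Slc16a3 do not overlap in basal-like cells only.

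Slc16a3 encodes MCT4, which exports lactate from cells that rely on glycolysis. In basal-like cells it was at 8.52 CPM (7.3 to 9.88) in Ctrl and 17.0 CPM (14.9 to 19.3) in cKO, a ratio of 2 (1.63 to 2.44), and it passed 1.5-fold in all 14 other ways of processing. Inside the largest mostly Ctrl cluster, the only one given here, Slc16a3 was at 9.11 CPM in Ctrl and 15.5 CPM in cKO cells (23 UMIs). This difference was not set against counting error. In suprabasal-like and HF WNTlo-like cells, where the Ctrl level was already 24.5 and 21.2 CPM, the ratios were 1.13 (0.876 to 1.46) and 1.18 (0.926 to 1.5). In HF WNThi-like cells it was at 5.99 and 12.9 CPM, a ratio of 2.16 (0.975 to 5.43) from 40 UMIs. The difference between these ratios was not tested. Slc16a1, which encodes the lactate and pyruvate transporter MCT1, was at 0.973 in basal-like cells and at 0.682 (0.582 to 0.8) in HF WNTlo-like cells. The partners that bring these carriers to the surface did not follow Slc16a3: in basal-like cells Bsg was at 320 and 270 CPM and Emb at 32.0 and 22.1 CPM. Of 9 glycolysis genes in basal-like cells, 2 passed 1.5-fold higher (Hk2 at 1.85 and Pgk1 at 1.96), none passed it lower, and the median log2 ratio was 0.11. Over all genes measured 6.52% passed 1.5-fold higher. Both genes had low levels, Hk2 at 11.4 and 21.2 CPM and Pgk1 at 3.02 and 5.9 CPM (62 and 82 UMIs). Pgk1 is also X-linked, and the libraries differ in sex. Aldoa, for comparison, was at 518 and 558 CPM. Eno1 was at 1.39, whereas Gapdh (0.87), Pkm (0.889) and Ldha (0.971) were below 1.

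Among the sugar transporters Slc2a1 was at 1.1 (1.06 to 1.15) in basal-like cells and at 0.818 in HF WNThi-like cells. Slc45a4, related to proton-coupled sugar carriers, was at 3.11 and 5.11 CPM in basal-like cells, a ratio of 1.64 (1.15 to 2.34) that passed 1.5-fold in 10 of 14 other ways of processing. Slc2a5 was the lowest of the group at 0.813 (0.585 to 1.12).

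Of the 14 members measured in basal-like cells from families grouped as amino acid transporters, none passed 1.5-fold. Over all genes measured there, 6.52% passed it higher and 2.25% lower. Slc16a10, with a log2 ratio of -0.535, was grouped by its family with the monocarboxylate carriers. Slc38a4, an imprinted gene for neutral amino acid uptake, was the lowest of the 14 (log2 ratio -0.523). It was at 108 CPM in Ctrl and 75.4 CPM in cKO, a ratio of 0.696 (0.646 to 0.75). In HF WNTlo-like cells it was at 70.5 and 43.4 CPM, a ratio of 0.616 (0.528 to 0.718), and in suprabasal-like cells at 0.916. The other imprinted member, Slc22a18, was at 0.681 (0.544 to 0.847) in basal-like cells. Slc3a2 and Slc7a5, the heavy and light chains of the large neutral amino acid transporter, were at 0.773 (0.735 to 0.812) and 0.835 (0.767 to 0.91) in basal-like cells, and both were below 1 in all 4 classes, as was the glutamine transporter Slc38a2. Slc1a4 was at 0.75 in basal-like cells, Slc1a5 at 1.26 and Slc38a6, the highest of the group, had a log2 ratio of 0.39. Of 7 amino acid response genes measured in basal-like cells, 1 passed 1.5-fold lower (Sesn2 at 0.592) and none higher. Their median log2 ratio was -0.23, beside 0.03 over all genes measured. In suprabasal-like cells Asns (0.626) and Phgdh (0.657), of 6 measured, passed it lower, beside 2.87% of all genes measured. Slc7a11 was at 0.957 (0.715 to 1.28) in these cells.

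Elsewhere, Slc1a3 was at 1.89 (1.49 to 2.41) in suprabasal-like cells, where its Ctrl level was low, and at 1.1 in basal-like cells. In HF WNTlo-like cells Slc7a1 was at 0.657 (0.508 to 0.849), but the difference was gone (log2 ratio 0.01) when cells with at least 1000 genes were kept. In HF WNThi-like cells Slc38a10 was at 1.55 (1 to 2.45), and at a log2 ratio of -0.02 with the same change of filter.

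The 34 mitochondrial carriers form the largest group, and the bulk of its UMIs came from the ADP and ATP exchangers Slc25a5 and Slc25a4 and the phosphate carrier Slc25a3. These stayed near 1 in basal-like cells, at 0.924, 1.08 and 1.0. Slc25a33, a pyrimidine nucleotide carrier, was higher in cKO: the ratio was 1.78 (1.46 to 2.18) in basal-like cells, at 8.86 and 15.8 CPM, and 2.01 (1.4 to 2.91) in suprabasal-like cells, at 9.42 and 18.9 CPM. It passed 1.5-fold in all 14 other ways of processing in both classes. Inside the largest mostly Ctrl cluster (1206 Ctrl and 151 cKO cells) the difference was smaller, at 10.6 and 14.2 CPM, and was not set against counting error. Slc25a51, the carrier of NAD, was above 1 in all 4 classes, from 1.25 (1.07 to 1.45) in HF WNTlo-like to 1.85 (1.3 to 2.68) in HF WNThi-like cells. Slc25a25 was the lowest of 33 measured in basal-like cells, with a log2 ratio of -0.38.

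The nucleotide sugar family held the lowest member in basal-like cells. Slc35e4, an orphan of that family, was at 5.16 CPM in Ctrl and 2.81 CPM in cKO, a ratio of 0.544 (0.367 to 0.793), and from fewer UMIs at 0.326, 0.473 and 0.489 in suprabasal-like, HF WNThi-like and HF WNTlo-like cells. Slc35e1 was at 9.78 and 6.12 CPM, a ratio of 0.626 (0.48 to 0.81). Slc35b2, which carries the sulfate donor into the Golgi, was above 1 in all 4 classes, from 1.3 in basal-like to 1.69 (1.11 to 2.64) in HF WNThi-like cells. Slc35a3, which overlaps another gene on its strand and is therefore less certain, was at 1.92 (1.28 to 2.89) in suprabasal-like cells. Slc35f5 was at 1.48 in basal-like and 0.675 in suprabasal-like cells, and this difference was not tested.

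Of the remaining groups, Slc15a2 was at 1.72 (1.35 to 2.2) in basal-like cells and at 1.27 (1.04 to 1.55) in its own HF WNTlo-like class. In suprabasal-like and HF WNThi-like cells it was at 2.54 (1.39 to 4.79) and 3.02 (1.15 to 10), from 51 and 33 UMIs. Slc19a1, the reduced folate carrier, was at 1.7 (1.13 to 2.59) in HF WNTlo-like cells and 1.31 in basal-like cells. Slc9a3r1, a scaffold protein named after the exchanger it binds and not itself a carrier, was at 1.6 (1.2 to 2.15) in HF WNTlo-like cells. Slc22a4, an ergothioneine transporter, was at 0.657 (0.502 to 0.855) in suprabasal-like cells and 1.06 in basal-like cells. In HF WNThi-like cells it was at 2.7 (1.47 to 5.34) from 78 UMIs, and the difference between these ratios was not tested. Of 14 ion transporters measured in basal-like cells none passed 1.5-fold, from Slc20a2 with a log2 ratio of -0.25 to Slc12a9 with 0.55. Over all genes measured in these cells, 6.52% passed it higher and 2.25% lower. The fatty acid carriers ranged from -0.29 (Slc27a4, needed for the skin barrier) to 0.23 (Slc27a1).

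**Figure D4:**
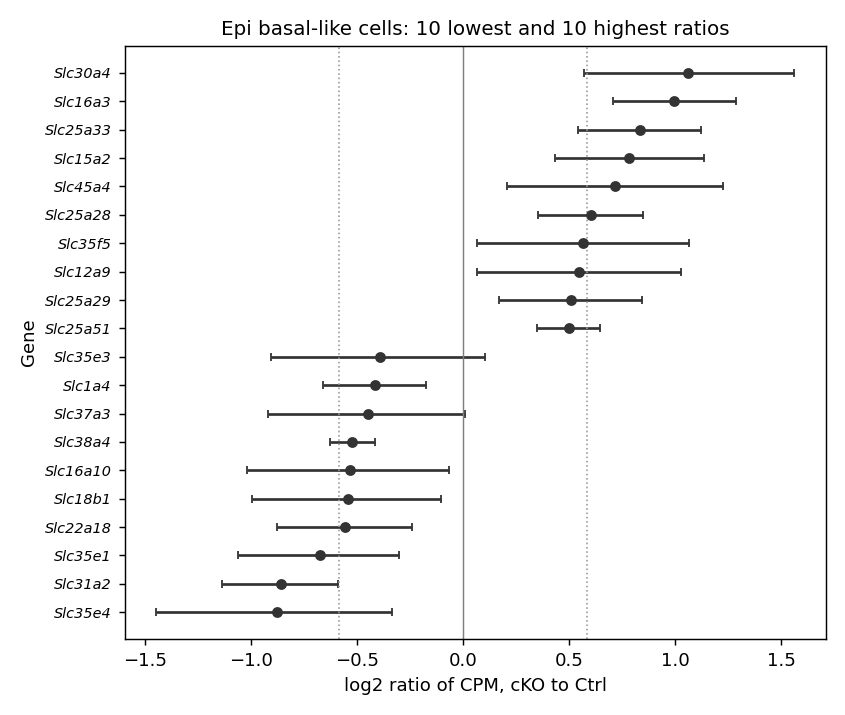
Log2 ratio of CPM in cKO to Ctrl (x axis) for the 10 lowest and the 10 highest solute carrier genes in Epi basal-like cells (y axis), with 95% exact conditional binomial intervals and dotted lines at 1.5-fold. The range runs from -0.88 for Slc35e4 to 1.06 for Slc30a4.

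**Figure D5:**
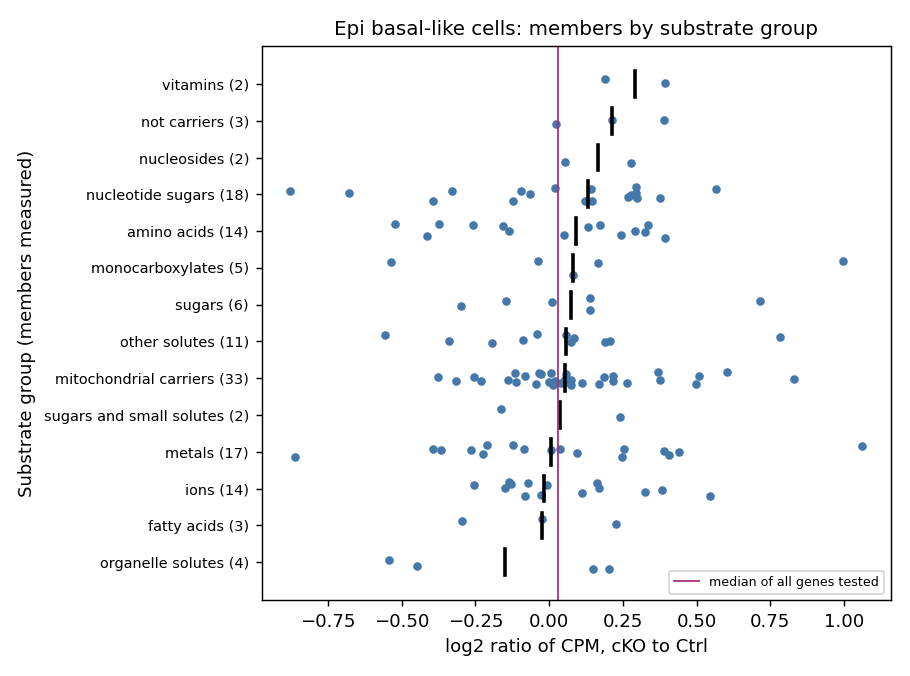
Each point is the log2 ratio of CPM in cKO to Ctrl (x axis) of 1 solute carrier gene in Epi basal-like cells, by substrate group (y axis, members measured in brackets), with a black bar at the group median and a purple line at the median of all genes measured, 0.03. Group medians run from -0.15 for organelle solutes to 0.29 for vitamins, and the groups overlap throughout.

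Over the 25 members measured in all 4 classes, 8 were below 1 in every class (Slc25a17, Slc25a5, Slc31a1, Slc35b1, Slc38a2, Slc38a4, Slc3a2 and Slc7a5) and 4 above 1 in every class (Slc25a4, Slc25a51, Slc35b2 and Slc38a10). Over all 4025 genes measured in all 4 classes, 29% were below 1 and 26.8% above 1 in every class. The number of coding exons was compared with the ratio because m6A is laid down preferentially in long exons. The 9 members with 1 or 2 coding exons had a median log2 ratio of 0.12 in basal-like cells, beside 0.29 over 885 genes with as few. The 30 members with 3 to 6 coding exons had 0.13, beside 0.09 over 2578 genes, and the 50 members with 7 to 10 had 0.06, beside -0.01 over 2129 genes. The 45 members with 11 or more had -0.01, beside -0.02 over 3837 genes.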

How the data were processed

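Single epithelial cells of 1 Ctrl and 1 cKO library were measured by droplet 3′ sequencing. Per the labels, the authors' deposited files hold UMI counts per gene and cell barcode, made with Cell Ranger 2.0 on mm10 (the methods give another release). The counts were used as deposited, with total UMIs of 59664869 in Ctrl and 49755010 in cKO over all barcodes. Cells with at least 1800 genes were kept (medians of 8941 and 8581 UMIs). Both libraries were clustered together (scanpy 1.11.5, 2000 variable genes without Slc genes, 10 components, Leiden resolution 0.8), and clusters were named by marker scores of at least 0.1 with a lead of 0.25, limits set after the clusters were seen. Scrublet marked 6 and 3 cells, under 0.5%, so it was taken as not having worked and no doublets were removed. UMIs were summed per class and library. CPM carry exact Poisson and ratios exact conditional binomial 95% intervals. The ratio intervals and the fold and enrichment rules were run on simulated Poisson counts, the model that the intervals assume. Such a run cannot show the spread between cells or libraries, and the CPM intervals were not part of it. Named genes were those enriched in 1 class, those with the 10 highest and 10 lowest ratios in basal-like cells or the 5 highest and lowest elsewhere, the extremes of each substrate group, textbook carriers and fixed partner lists (glycolysis, amino acid response, zinc, iron, Slc16 partners, other membrane transport). The genes of the contrasts with basal-like cells were added after the values were seen. The members and lists were chosen with earlier results of these data known. Members with a promoter in the RefSeq table numbered 112 of 147. Of the members, 8 overlap another gene on the same strand. Alternatives covered scaling (with TMM from edgeR 4.0.16), cell filters, free RNA and clustering.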

Additional observations from a re-analysis of the deposited data

Results flagged for a closer look

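Slc45a2, Slc26a7, Slc10a6 and Slc8a2 fell under the minimum of 200 UMIs and so entered no comparison, but each had most of its UMIs in 1 cluster. Slc45a2, which acts in pigment cells, had 24 of its 28 UMIs in the cluster of 59 cells that holds melanocyte and fibroblast markers, all 24 in Ctrl, at 46.1 CPM against 0.0516 CPM elsewhere. Clustered alone, the Ctrl library gave a melanocyte or neural crest-like cluster of 36 cells and the cKO library a fibroblast-like cluster of 24 cells, so the shared cluster may not hold the same cells in both libraries. Slc26a7, an anion exchanger, had 17 of 18 UMIs in the same cluster, 16 of them in Ctrl. Slc10a6, a transporter of steroid sulfates, had 22 of 38 UMIs in the smaller suprabasal-like cluster of 102 cells, 16 in Ctrl and 6 in cKO, at 14.7 CPM against 0.209 CPM elsewhere. Slc8a2, a sodium and calcium exchanger, had 17 of 30 UMIs in the unnamed cluster of 633 cells with markers of both follicle classes, 10 in Ctrl and 7 in cKO. No cause of these patterns was tested.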

How the results depend on the processing

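No paired analysis was possible because each condition had 1 library. Of 1190 values of the 85 named ratios under other ways of processing, 1147 lay within the counting interval of the reported value, 41 lay outside it and 2 turned the direction of a call. In all, 43 values of 21 ratios changed sign, 29 of them within that interval. With at least 1000 genes per cell the log2 ratio became -0.024 for Slc38a10 in HF WNThi-like and 0.0090 for Slc7a1 in HF WNTlo-like cells. Of the counts of calls, 6 higher members in basal-like cells became 3 when each cluster took its highest marker score (chosen after seeing the data) and 1 at 2-fold, and 3 lower became 5 with median of ratios factors, 5 with at least 2500 genes per cell and 0 at 2-fold. In the other classes, 10 higher pairs of gene and class became 37 with at least 20 UMIs and 1 at 2-fold, and 7 lower pairs became 28, 0 and, with at least 2500 genes per cell, 3. The 8 enriched genes became 5 when each library was clustered alone and 17 at 1.5-fold. A higher fold and a higher UMI minimum count fewer by construction, and for the other changes the cause was not tested. Scaling moved the median of all genes by at most 0.07 on the log2 scale. Depth limits the HF WNThi-like class most, where a count of 0 allows up to 2.25 CPM in Ctrl.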
